A study of Mus musculus with 32 samples.

Results

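Isg15, Ifit1, Ifit2, Ifit3, Oasl2, Rsad2, Mx1, Ifi44, Usp18 and Ifih1, 10 antiviral effector genes of the type I interferon response, were followed by symbol through 6 groups of mouse tissue. They were taken by name from a list, and all 10 were present among the 29511 genes of the count table and the 29434 symbols of the FPKM table (fragments scaled by gene length and by the depth of the sample). The hosts were young adult virgin female FVB/N mice, either *Clic4* knockout (KO) in every cell or their wildtype (WT) counterparts. *Clic4* encodes a chloride intracellular channel protein that is found in the cytoplasm and the nucleus. Tumors grew from 6DT1 cells, a mouse mammary tumor line placed in the fourth mammary fat pad, and these cells carry *Clic4* in both kinds of host. Tumors were taken 14 days after implantation from 6 KO and 6 WT hosts, and lungs of tumor-bearing mice were taken at the same time from 6 KO and 6 WT mice. Lungs at baseline, called control lungs here, came from 4 KO and 4 WT mice with no tumor. Samples are named by group and number, for example KO tumor 2, and the labels do not say whether a tumor and a lung with the same number came from 1 mouse.

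Type I interferons, the alpha and beta forms and their relatives, are made when a cell senses foreign or misplaced nucleic acid. They bind a receptor of IFNAR1 and IFNAR2 and act through a complex that holds STAT2 and IRF9 and reads an interferon-stimulated response element (ISRE) in its target genes. Interferon gamma, made mainly by T cells and NK cells, binds IFNGR1 and IFNGR2 and acts on gamma-activated sites (GAS), and the factor IRF1 that it induces also reads ISREs. The target sets of the types overlap. The genes of antigen presentation, the guanylate-binding proteins and the immunity-related GTPases respond strongly to interferon gamma, whereas the effectors above are known for their response to type I interferon.

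The total count of a sample ran from 4446323 to 8318711, with a median of 5384934. The members had from 5 counts, for Mx1 in 14-day KO lung 1, to 2508 counts, for Ifit3 in 14-day WT lung 5. *Clic4* was at 58.17 to 74.56 FPKM in 14-day KO lungs against 154.58 to 229.65 in 14-day WT lungs, and at 55.42 to 67.59 against 160.32 to 174.73 in control lungs. Per the study, what is still read in KO lungs maps beside the deleted exon, which gene-level values cannot show. In tumors, which hold 6DT1 cells with *Clic4*, the range was 58.92 to 68.98 FPKM in KO hosts and 74.65 to 82.23 in WT hosts. The 8 lung epithelial markers summed to 32927 FPKM or more in every lung and to 8.0 or less in every tumor. The 6 mammary tumor epithelial markers summed to 553 to 1129 FPKM in tumors and to 224 to 301 in lungs.

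The promoters of the members whose ISRE core could be read are shown first, since this is the element that the complex with STAT2 and IRF9 reads. RefSeq promoters of GRCm38.p6, from 250 bases before to 50 after the start of the gene, were matched to 8 members. Mx1 and Usp18 had no entry. The ISRE core was searched as GAAANNGAAA or, on the other strand, TTTCNNTTTC, and it was found in 5 of these 8 genes and in 3.44% of all 32851 promoters. Shown 5′ to 3′ on the strand of the gene are the 160 bases before the start and, for Ifih1, the last 28 bases of the window, with the ISRE core in capitals.
Isg15, chr4:156200819-156200978, minus strand: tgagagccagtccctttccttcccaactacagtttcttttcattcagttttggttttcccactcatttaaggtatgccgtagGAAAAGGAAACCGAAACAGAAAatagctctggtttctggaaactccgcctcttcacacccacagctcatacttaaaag
Ifit1, chr19:34640729-34640888, plus strand: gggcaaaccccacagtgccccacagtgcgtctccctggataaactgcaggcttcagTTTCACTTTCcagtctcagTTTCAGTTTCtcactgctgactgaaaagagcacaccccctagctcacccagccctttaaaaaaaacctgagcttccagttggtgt
Ifit3, chr19:34583369-34583528, plus strand: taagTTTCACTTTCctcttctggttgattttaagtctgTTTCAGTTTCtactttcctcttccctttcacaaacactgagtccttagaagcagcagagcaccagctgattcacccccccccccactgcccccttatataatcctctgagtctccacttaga
Rsad2, chr12:26456453-26456612, minus strand: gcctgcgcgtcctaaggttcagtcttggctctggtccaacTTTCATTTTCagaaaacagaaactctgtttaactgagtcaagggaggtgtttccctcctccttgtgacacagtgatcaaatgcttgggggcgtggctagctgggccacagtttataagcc
Ifih1, chr2:62646206-62646233, minus strand: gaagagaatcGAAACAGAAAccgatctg

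Counting back from the start, the cores of Isg15 began at -78, -72 and -66 and overlap into a single run, those of Ifit1 at -104 and -85, those of Ifit3 at -156 and -122, and that of Rsad2 at -120. The core of Ifih1 lay at +33, after the start. The letters were not found in the windows of Ifit2, Oasl2 and Ifi44. The GAS core, TTCNNNGAA on either strand, was found in 1 of the 8 members, Ifit2 at -241, and in 8.3% of all promoters. A match describes these letters and is not evidence of binding.

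For the interferon-gamma-type genes set beside the members, 25 of 34 had a RefSeq promoter, of which 12 held the ISRE core and 10 the GAS core. A pair of them is shown over the 160 bases before the start, with GAS and ISRE cores in capitals: Irf1, a transcription factor, held a GAS core at -90, and Tgtp2, an immunity-related GTPase, held a GAS core at -81 followed by an ISRE core at -70.
Irf1, chr11:53769854-53770013, plus strand: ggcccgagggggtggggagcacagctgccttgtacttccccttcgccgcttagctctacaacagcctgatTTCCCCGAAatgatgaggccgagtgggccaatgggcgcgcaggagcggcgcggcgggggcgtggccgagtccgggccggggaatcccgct
Tgtp2, chr11:49064213-49064372, minus strand: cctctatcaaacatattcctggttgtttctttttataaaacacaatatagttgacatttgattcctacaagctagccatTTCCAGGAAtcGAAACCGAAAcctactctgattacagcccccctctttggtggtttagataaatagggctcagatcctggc

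In the genome, Ifit2 (19:34550694-34576419), Ifit3 (19:34583531-34588731) and Ifit1 (19:34640871-34650009) are neighbors on chromosome 19 in GRCm38 with GENCODE M21. Isg15 lies at 4:156199424-156200818, 20.9 Mb from *Clic4* on the same chromosome. The others are on other chromosomes, Oasl2 at 5:114896936-114912234, Rsad2 at 12:26442746-26456452, Mx1 at 16:97447035-97462907, Ifi44 at 3:151730922-151749960, Usp18 at 6:121245906-121270917 and Ifih1 at 2:62595798-62646255. The reference is C57BL/6 and the mice are FVB/N, and reads of Ifit1, Ifit3 and Oasl2 can be shared with the near relatives Ifit1bl1, Ifit3b and Oasl1.

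In tumors, none of the 10 members passed the test between host genotypes, although all 10 had a higher estimate in KO hosts. The median log2 fold change (KO minus WT) of the members was 0.54, against -0.01 over all genes tested. The largest estimate was 0.78 for Ifit3 and the smallest 0.25 for Usp18. By edgeR's quasi-likelihood test with Benjamini-Hochberg adjustment at an adjusted p of 0.05, 2.51% of the 13830 genes tested were called, 2.02% higher and 0.492% lower in KO hosts. At an unadjusted p under 0.05 there were 2146 genes in all, among them 3 members, Ifit2, Rsad2 and Ifih1. DESeq2 called no member either. In this bulk RNA, fewer cells of a type and less RNA per cell cannot be told apart.

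**Figure D1:**
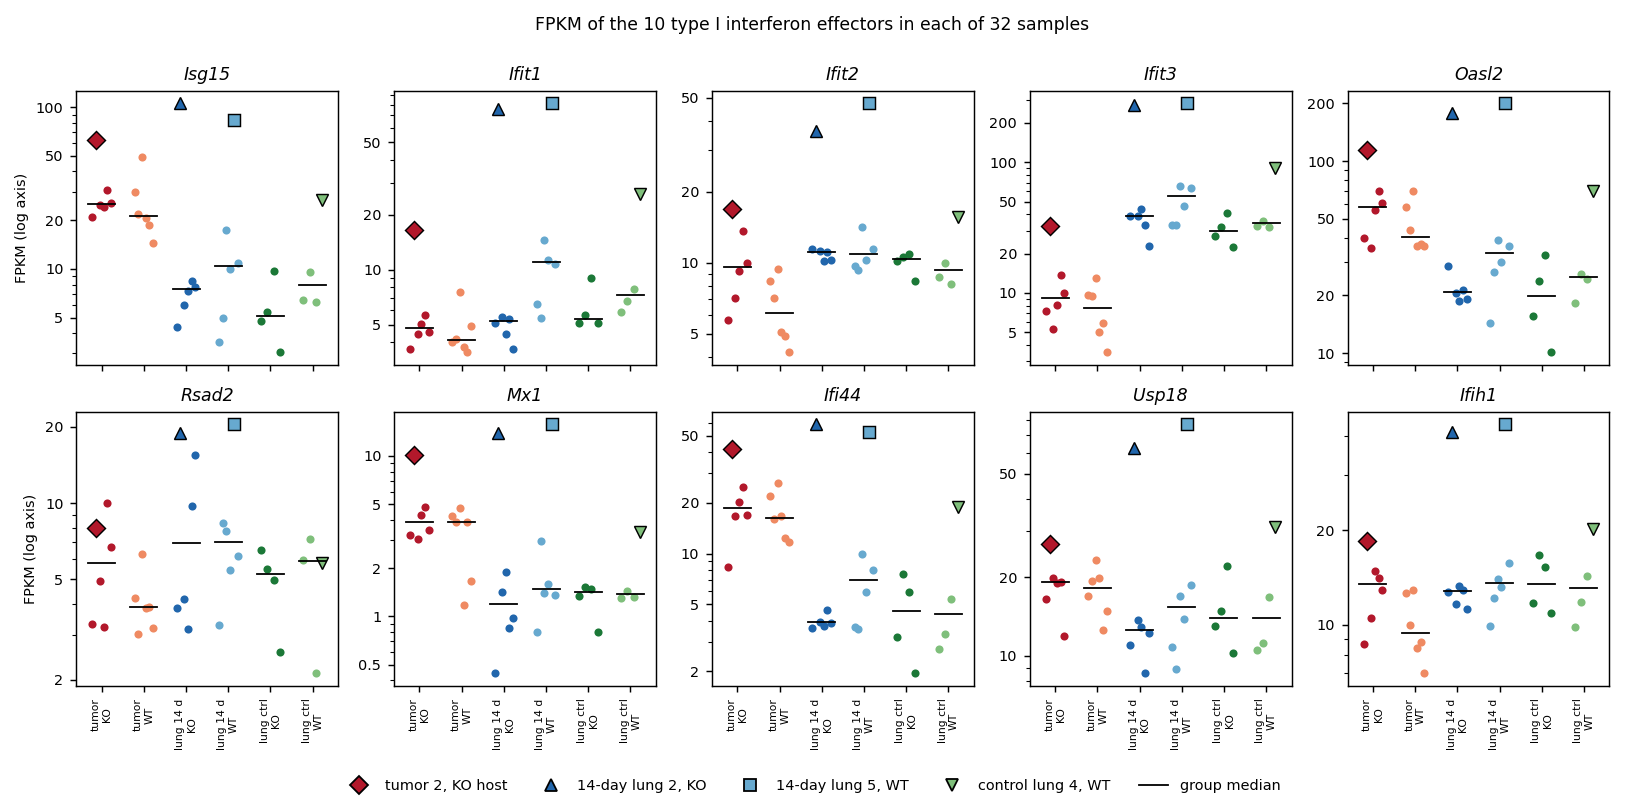
Level of each member in FPKM (log axis, 1 panel per gene) in every sample of the 6 groups (x axis), with a bar at the group median. In 14-day lungs a single sample of each genotype, KO lung 2 and WT lung 5, sits far above the other 5 for most genes, while the tumors of both hosts overlap.

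Isg15 encodes a ubiquitin-like protein that is joined to other proteins during the response. Its FPKM ran from 21.05 through a median of 25.1 to 62.95 in KO tumors and from 14.51 through 21.2 to 49.16 in WT tumors. The groups overlapped, with KO tumor 2 the highest of the KO tumors and WT tumor 3 the highest of the WT tumors. The log2 fold change was 0.35 ± 0.31 (SE, adjusted p = 0.646 by edgeR).

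Ifit1, Ifit2 and Ifit3 encode proteins with tetratricopeptide repeats that bind foreign RNA and hold back translation. Ifit1 was at 3.68, 4.82 and 16.4 FPKM (lowest, median, highest) in KO tumors and at 3.53, 4.11 and 7.55 in WT tumors. For Ifit2 the same values were 5.72, 9.61 and 16.82 in KO tumors and 4.18, 6.11 and 9.46 in WT tumors. KO tumor 2 was again highest for both genes. The other 5 KO tumors lay within the WT range for Ifit1, while KO tumors 2, 5 and 6 were above every WT tumor for Ifit2. Ifit3 was at 5.33, 9.07 and 32.35 FPKM in KO tumors and at 3.51, 7.71 and 12.9 in WT tumors, with KO tumors 2 and 5 above every WT tumor. The log2 fold changes were 0.56 ± 0.34 for Ifit1 (SE, adjusted p = 0.470 by edgeR), 0.72 ± 0.25 for Ifit2 (adjusted p = 0.169) and 0.78 ± 0.40 for Ifit3 (adjusted p = 0.384). Ifit2 had the smallest p of the members.

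Among the effectors that act on viral replication, Oasl2 belongs to the oligoadenylate synthetase family, Rsad2 encodes viperin, and Mx1 encodes a dynamin-like GTPase that is defective in many inbred strains of mice. Oasl2 was at 35.26, 57.96 and 114.77 FPKM in KO tumors and at 36.18, 40.31 and 69.91 in WT tumors, with a log2 fold change of 0.52 ± 0.26 (SE, adjusted p = 0.356 by edgeR). Rsad2 was at 3.25, 5.82 and 9.98 FPKM in KO tumors and at 3.04, 3.87 and 6.29 in WT tumors, and differed by 0.63 ± 0.27 (adjusted p = 0.271). It is the member whose highest KO tumor was number 5 and not number 2. Mx1 was at 3.03, 3.89 and 10.12 FPKM in KO tumors and at 1.17, 3.89 and 4.75 in WT tumors, and its log2 fold change was 0.61 ± 0.35 (adjusted p = 0.438). The medians of Mx1 were the same in both hosts to these digits.

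Ifi44 encodes an interferon-induced cytoplasmic protein, Usp18 the protease that removes ISG15 and dampens the type I receptor, and Ifih1 the RNA sensor MDA5. Ifi44 was at 8.38, 18.59 and 41.76 FPKM in KO tumors and at 11.67, 16.36 and 26.28 in WT tumors, with a log2 fold change of 0.31 ± 0.28 (SE, adjusted p = 0.652 by edgeR). Usp18, the least changed, was at 11.93, 19.2 and 26.83 FPKM against 12.59, 18.2 and 23.23, a log2 fold change of 0.25 ± 0.22 (adjusted p = 0.633). The lowest value of both genes was in a KO tumor. Ifih1 was at 8.65, 13.5 and 18.49 FPKM in KO tumors and at 6.98, 9.39 and 12.92 in WT tumors, and differed by 0.40 ± 0.18 (adjusted p = 0.286).

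KO tumor 2 carried much of the difference in some members and less in others. Without it, chosen after its values were seen, the median log2 fold change of the members was 0.24, and again no member was called. Then Isg15, Ifit1, Ifi44 and Usp18 were at 0.01, 0.05, 0.01 and 0.06, Ifit3, Oasl2, Mx1 and Ifih1 at 0.25, 0.28, 0.23 and 0.26, and Ifit2 and Rsad2 at 0.53 and 0.52. Leaving out WT tumor 3, the highest WT tumor for all 10 members, moved the median the other way, to 0.73. Over the 12 tumors left out in turn, the members called stayed at 0. None of the 10 members had FPKM values in all KO tumors above those in all WT tumors, as 1.05% of genes did.

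In the same 12 tumors, the interferon-gamma-type genes were higher in KO hosts. All 34 of 34 listed genes were called, with a median log2 fold change of 1.51 (0.71 to 3.28), and 32 of them did not overlap between hosts. This list was chosen with earlier results of these tumors known, so the count describes the genes and is not independent evidence of their direction. The count was 34 whichever tumor was left out, with medians from 1.39 to 1.59, and 1.43 without KO tumor 2. The 8 with the smallest p were Psmb9, Irf1, Serpina3g, Tgtp2, Nlrc5, Psmb8, H2-K1 and Tap2.

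Irf1, whose protein reads ISREs itself, was at 59.75 to 84.62 FPKM in KO tumors and at 32.38 to 40.64 in WT tumors. The hosts did not overlap. The log2 fold change was 1.16 ± 0.10 (SE, adjusted p = 4.33e-05 by edgeR). Psmb9 and Psmb8 encode catalytic subunits of the immunoproteasome, Tap2 a part of the peptide transporter, H2-K1 a class I antigen-presenting molecule and Nlrc5 the transactivator of class I genes. Psmb9 was at 54.89 to 93.4 FPKM in KO tumors against 18.09 to 34.82 in WT tumors, a log2 fold change of 1.66 ± 0.14. Those of the others were 1.32 ± 0.13 for Psmb8, 1.28 ± 0.13 for Tap2, 1.18 ± 0.12 for H2-K1 and 1.76 ± 0.17 for Nlrc5. Over all 34 genes the SE ran from 0.10 to 0.44, and over the members from 0.18 to 0.40. Tgtp2 differed by 2.59 ± 0.23 and Serpina3g, a serine protease inhibitor, by 2.60 ± 0.23.

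**Figure D2:**
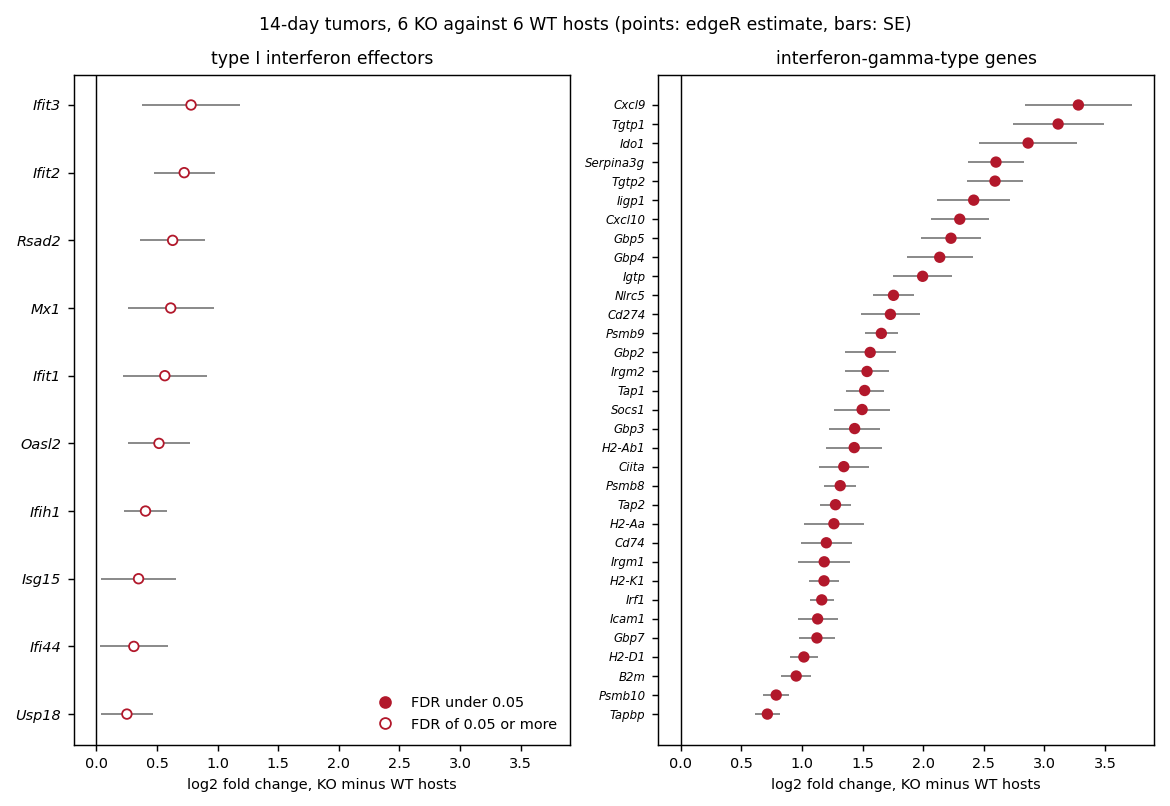
Log2 fold change of KO over WT hosts in 14-day tumors (x axis) for each member and 33 interferon-gamma-type genes (y axis), as edgeR's estimate with its SE. The members lie between 0.25 and 0.78 with wide bars, the interferon-gamma-type genes between 0.71 and 3.28.

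Of 43 other effectors of the type I response listed, 41 were in the table, 38 were tested and 3 were higher in KO tumors, where 2.02% of all genes were, with a median log2 fold change of 0.30. These were Samhd1 (0.91 ± 0.11, adjusted p = 0.000283), which breaks down nucleotides needed by viruses, Zbp1 (1.60 ± 0.25, adjusted p = 0.0021), a sensor of nucleic acid in the Z form, and Ly6e (0.28 ± 0.07, adjusted p = 0.0429). Among the 5 enzymes that attach or remove ISG15, Uba7, which activates it, was higher (0.64 ± 0.13, adjusted p = 0.0147 by edgeR). The conjugating enzyme Ube2l6 (0.54, adjusted p = 0.0563), the ligase Herc6 (0.58, adjusted p = 0.1002) and Trim25 (-0.04) did not pass, and neither did Usp18.

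Upstream, the receptor chain Ifnar2 differed by 0.29 on the log2 scale (adjusted p = 0.0993 by edgeR) and the kinase Tyk2 by 0.21 (adjusted p = 0.146). Stat2, a transducer of the type I receptor, was called higher in KO hosts at 0.99 ± 0.20 (adjusted p = 0.0135). Jak2, a kinase of the interferon gamma receptor, was also called, at 0.50 ± 0.08 (adjusted p = 0.00163). Of 18 genes of nucleic acid sensing, Irf5, a transcription factor downstream of toll-like receptors, was the 1 called (0.57, adjusted p = 0.00906). Over all genes tested in tumors, 2.51% were called in either direction.

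The interferons themselves were near the limit of detection. Ifng, which encodes interferon gamma, was at 0.43 to 2.6 FPKM in the 6 KO tumors and at 0 to 0.53 in the WT tumors, where 3 of 6 were listed at 0. It was at 0 in all 8 control lungs and at 0 to 0.65 in 14-day lungs. Of the type I genes, Ifna13 was at 0 to 1.0 FPKM in tumors and at 0 in every lung, Ifnab at 0 in 31 of 32 samples, Ifnz at 0 to 0.29 and Ifnk at 0.26 to 4.59. Ifnk was at 4.59 FPKM in 14-day KO lung 2, 0.58 in 14-day WT lung 5, 0.82 in control WT lung 4 and 1.78 in KO tumor 2, and the sum of the 4 type I genes was the highest of the group in the first and last of these and ranked 5 of 6 and 3 of 4 in the others. None of these genes passed the filter on low counts, so none was tested. The other interferon genes listed, Ifnb1 among them, were looked for and not found under their symbols, so they have no value here.

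A few markers of immune cells were called higher in KO tumors, where 2.02% of all genes were. The summed FPKM of 8 T cell markers was 24.56 to 45.81 in KO tumors and 11.18 to 41.73 in WT tumors, and 2 of the 6 tested were called, Cd3g (1.31) and Cd3d (1.46), parts of the T cell receptor complex. The sum of 6 NK cell markers was 21.8 to 34.4 against 12.23 to 35.49, with 1 of 6 called, Klrk1 (1.18), while Eomes had an estimate of -0.23. That of 8 macrophage markers was 517 to 812 against 312 to 662, with 1 of 8 called, C1qb (0.73), while Mertk (-0.43) and Mrc1 (-0.12) had negative estimates. Eomes, Mertk and Mrc1 are named after their values were seen. None of the neutrophil, plasmacytoid dendritic cell, B cell, endothelial or epithelial markers tested was called. The sums of these lists overlapped between hosts, and their part in the interferon genes was not tested.

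Single samples stood far above the rest of their group. In 14-day KO lung 2, all 10 were the highest of their group, at 3.23 to 15.2 times the median of the other 5 lungs, with a median of 7.91, where 2463 of 15100 genes were highest. Isg15, for example, was at 105.86 FPKM there and at 4.36 to 8.44 in the other 5 KO lungs, and Ifi44 at 58.63 against 3.61 to 4.64. In 14-day WT lung 5, all 10 were likewise highest, at 3.31 to 11.3 times the median of the others, with a median of 6.40, where 2687 of 15114 genes were highest. There Isg15 was at 83.09 FPKM against 3.53 to 17.45 and Ifit1 at 81.65 against 5.47 to 14.49. By Dixon's ratio, the gap to the nearest sample over the range of the group, 9 of the 10 members stood apart in KO lung 2, where 1.68% of genes did so, and 10 of 10 in WT lung 5, where 1.57% did. Rsad2 was the exception in KO lung 2, since KO lung 6 was at 15.54 FPKM against 18.95.

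A smaller excess of the same kind was found in a control lung and in tumors of both hosts. WT tumor 3 was the highest WT tumor for all 10 members. On the log2 scale, the mean of the members was 0.71 above the group mean in WT tumor 3 and 1.03 above it in KO tumor 2. In control WT lung 4, 9 of 10 members were highest, as were 4379 of 15080 genes, with a median of 2.78 times the other 3 lungs, and 6 stood apart by Dixon's ratio, as 1.54% of genes did. Rsad2, at 5.81 FPKM, was not highest there. In KO tumor 2 the median was 2.27 times that of the other 5 tumors, 9 of 10 were highest, as were 1927 of 13995 genes, and 4 stood apart (Isg15, Ifit1, Ifit3 and Mx1), as 1.19% of genes did. The total counts of KO lung 2, WT lung 5, control WT lung 4 and KO tumor 2, 4643919 to 6080326, lay within the range of the others. Over all genes at a group mean of 1 FPKM or more, the medians were 0.98, 0.99, 1.02 and 0.95 times those of the other samples, in the order KO lung 2, WT lung 5, control WT lung 4 and KO tumor 2.

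The interferon-gamma-type genes had smaller folds in KO lung 2, WT lung 5, control WT lung 4 and KO tumor 2. These samples were picked for their levels of the members, so the members' folds are high by that choice. The contrast is a description and not a test. In KO lung 2 their median was 1.84 times that of the group, and 14 of 31 measured stood apart. In WT lung 5 it was 1.61, with 10 of 32, in control WT lung 4 it was 1.51, with 7 of 31, and in KO tumor 2 it was 1.08, with 0 of 34. In KO tumor 2 only 5 of the 34 were the highest of the group, beside 9 of 10 members. Irf1 was at 1.38, 1.15, 1.05 and 0.92 times the other samples in the order above. The other type I effectors lay between, with medians of 3.52, 3.18, 1.94 and 1.48. Irf7, the factor that amplifies production of type I interferon, was at 117.27, 118.89, 59.77 and 83.18 FPKM in these samples, 9.80, 6.15, 3.85 and 2.22 times the others.

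**Figure D3:**
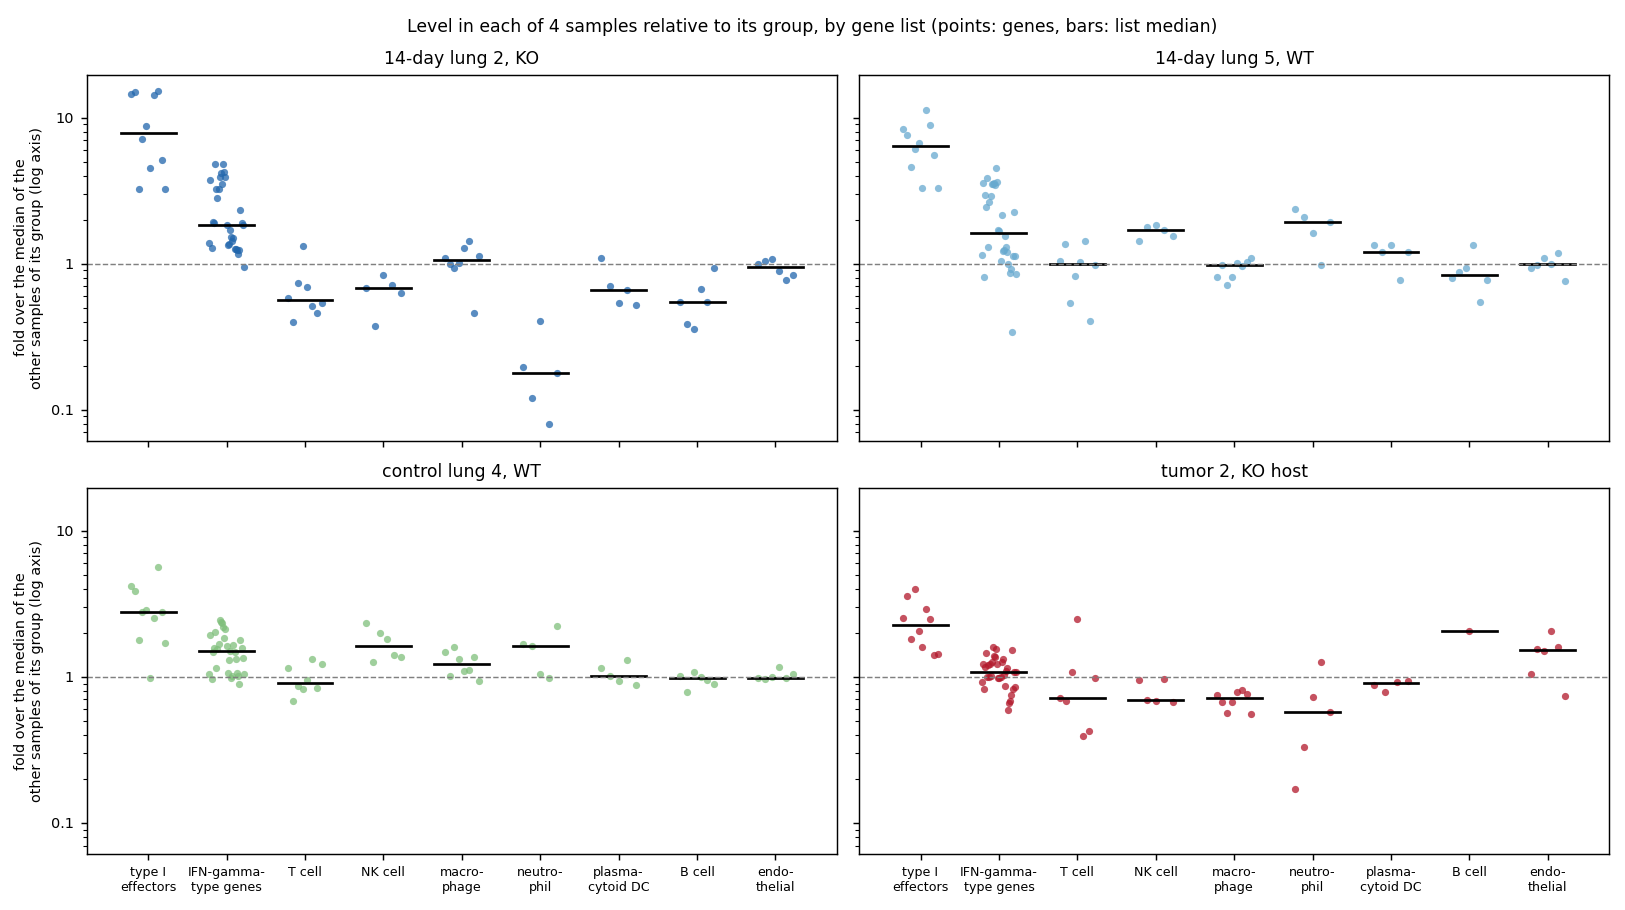
Level of each gene in 14-day KO lung 2, 14-day WT lung 5, control WT lung 4 and KO tumor 2 as a fold over the median of the other samples of its group (y axis, log axis), for the gene lists on the x axis, with a bar at the median of each list. The members have medians of 7.91, 6.40, 2.78 and 2.27, and the interferon-gamma-type genes 1.84, 1.61, 1.51 and 1.08. The samples were picked for their levels of the members.

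Cell type markers did not move alike in the high samples. Neutrophil markers were at a median of 0.179 times the other lungs in KO lung 2, at 1.95 times in WT lung 5, at 1.62 times in control WT lung 4 and at 0.571 times in KO tumor 2. Medians of the NK cell markers were 0.683, 1.71, 1.61 and 0.692. Those of the T cell markers were 0.562, 1.00, 0.910 and 0.713, and those of the macrophage markers 1.06, 0.974, 1.22 and 0.715. The B cell markers had medians of 0.547, 0.843 and 0.976 in the 3 lungs. In KO tumor 2 the sum of the B cell markers, 28.97 FPKM, was the highest of the KO tumors, and the 1 of them measured was at 2.08 times the others and stood apart. Also in KO tumor 2, endothelial markers had a median of 1.53 with 5 of 6 the highest of the group, and the sums of macrophage markers (517 FPKM) and mammary tumor epithelial markers (553 FPKM) were the lowest of the KO tumors, although the 6 mammary tumor epithelial markers had a median of 1.196 times the others (0.458 to 2.45). Plasmacytoid dendritic cell markers, of cells known for making much type I interferon, were at 0.665, 1.201, 1.01 and 0.901. The part of any of these in the members' levels was not tested.

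The members moved together across samples. After the mean of each group was taken out, the median Pearson correlation over the 45 pairs of members was 0.92 across 32 samples, from 0.56 for Ifit3 and Rsad2 to 0.97 for Oasl2 and Ifi44. It was 0.83 across 12 tumors and 0.95 across 20 lungs. Without the 3 highest lungs it was 0.70 across 17 lungs (-0.14 to 0.88), and without KO tumor 2 it was 0.71 across 11 tumors. These are descriptions, since the genes share libraries and 4 samples set much of the spread. With the mean of the members, the correlation had a median of 0.67 for the interferon-gamma-type genes, 0.90 for the other type I effectors and -0.02 for all 16784 genes across the 32 samples. In tumors alone it was 0.43 for the interferon-gamma-type genes and 0.76 for the other effectors. Across the 20 lungs alone it was higher for both, at 0.76 for the interferon-gamma-type genes and 0.94 for the other effectors.

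The 10 genes outside the list whose pattern across the 32 samples was most like the mean of the members had correlations of 0.970 to 0.986. They were Rnf213, Adar, Ddx58, Xaf1, Trim30a, Irf7, Parp9, Phf11d, Herc6 and Parp12 in that order. Adar encodes an enzyme that edits double-stranded RNA, Ddx58 the RNA sensor RIG-I, and Herc6 the main mouse ligase for ISG15. None of the 34 interferon-gamma-type genes was among them.

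In lungs, none of the members passed the test in any comparison, at the wider adjusted p of 0.25 used for lungs. Between 14-day KO and WT lungs the median log2 fold change of the members was -0.22, with 8 of 10 negative, and 0.861% of the 16029 genes tested were called. Between control KO and WT lungs it was -0.58, with 10 of 10 negative and 0.973% of genes called. Comparing 14-day with control lungs, the median was 0.78 in WT mice and 1.16 in KO mice, with 10 of 10 positive in both, where 2.33% and 1.05% of genes were called. The interaction, the change with tumor in KO minus that in WT lungs, had a median of 0.32, and 0.0499% of genes were called. No member had an unadjusted p under 0.05 in any of the 5, where 1337 to 1884 genes did. DESeq2 called none of the 4 to 6 members to which it gave an adjusted p.

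Among the ubiquitin-like pathway, Isg15 had medians of 7.52 FPKM in 14-day KO lungs and 10.4 in 14-day WT lungs. Its control values were 4.79, 5.38, 9.64 and 3.05 FPKM in KO and 6.38, 9.62, 6.22 and 26.6 in WT lungs. Its log2 fold changes were 0.11 ± 0.75 between 14-day KO and WT lungs and 2.01 ± 1.04 between 14-day and control KO lungs (SE, adjusted p = 0.985 and 0.613 by edgeR). Without KO lung 2 the latter was 0.22. Usp18, which removes ISG15, was at 13.03, 14.83, 22.12 and 10.31 FPKM in control KO and 10.5, 11.17, 16.84 and 31.24 in control WT lungs, with medians of 12.6 and 15.4 in 14-day KO and WT lungs. Control WT lung 4 was the highest of the control lungs for both genes, and the groups overlapped.

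Ifit3 was the most abundant member in lungs per length, with medians of 38.7 and 54.9 FPKM in 14-day KO and WT lungs. In control lungs it was at 27.49, 31.81, 40.58 and 22.39 FPKM in KO and 32.54, 35.82, 31.75 and 90.13 in WT mice. Between 14-day KO and WT lungs it differed by -0.21 ± 0.57 on the log2 scale and Ifit1 by -0.37 ± 0.73 (SE, adjusted p = 0.961 and 0.942 by edgeR). Ifit1 was at 5.13, 5.64, 9.0 and 5.12 FPKM in control KO and 5.9, 6.7, 7.8 and 25.86 in control WT lungs. Ifit2 stayed within 8.11 and 15.61 FPKM in all 8 control lungs and within 9.37 and 14.19 in 14-day lungs other than KO lung 2 (36.05) and WT lung 5 (47.44).

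The effectors on viral replication were spread in the same way. Oasl2 had medians of 20.89 and 33.0 FPKM in 14-day KO and WT lungs and ranged from 10.12 to 32.59 in control KO and from 18.27 to 69.61 in control WT lungs. Mx1 was low in lungs, with 0.44 to 1.89 FPKM in the 14-day KO lungs other than number 2 (13.98), and 0.8 to 2.96 in the WT lungs other than number 5 (15.76). Rsad2 was highest in KO lungs 2 (18.95) and 6 (15.54) and WT lung 5 (20.47), and 2.12 to 7.22 in control lungs. Its difference between 14-day KO and WT lungs was 0.12 ± 0.43 on the log2 scale (SE, adjusted p = 0.973 by edgeR). Ifi44 ran from 1.94 to 7.58 FPKM in control KO and from 2.73 to 18.87 in control WT lungs. The sensor Ifih1 was at 9.81 to 20.12 FPKM in control lungs and at 9.87 to 15.77 in 14-day lungs other than KO lung 2 (41.1) and WT lung 5 (43.57).

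The lung estimates turned on the high samples. Without KO lung 2, WT lung 5 and control WT lung 4, all chosen after their values were seen, the median log2 fold change of the members was -0.38 between 14-day KO and WT lungs, -0.09 between control lungs, 0.28 with tumor in WT lungs and -0.07 in KO lungs, and -0.28 for the interaction. Then 1 member was called, Ifit1, lower in 14-day KO than WT lungs (-1.01 ± 0.22, adjusted p = 0.197 by edgeR), where 0.143% of 16093 genes were called lower. Its remaining values were 5.09, 5.53, 4.47, 5.35 and 3.67 FPKM in KO and 6.53, 5.47, 14.49, 11.25 and 10.8 in WT lungs, so 4 of 5 WT lungs lay above every KO lung. Since the samples were left out for their levels of these genes, the call describes the rest and is not a test of the full groups. With KO lung 2 alone left out, Ifit1 was also called (-2.17, adjusted p = 0.247), and the median was -1.38. With WT lung 5 alone left out the median was 0.68, so the sign of the genotype difference depended on which of both was kept.

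**Figure D4:**
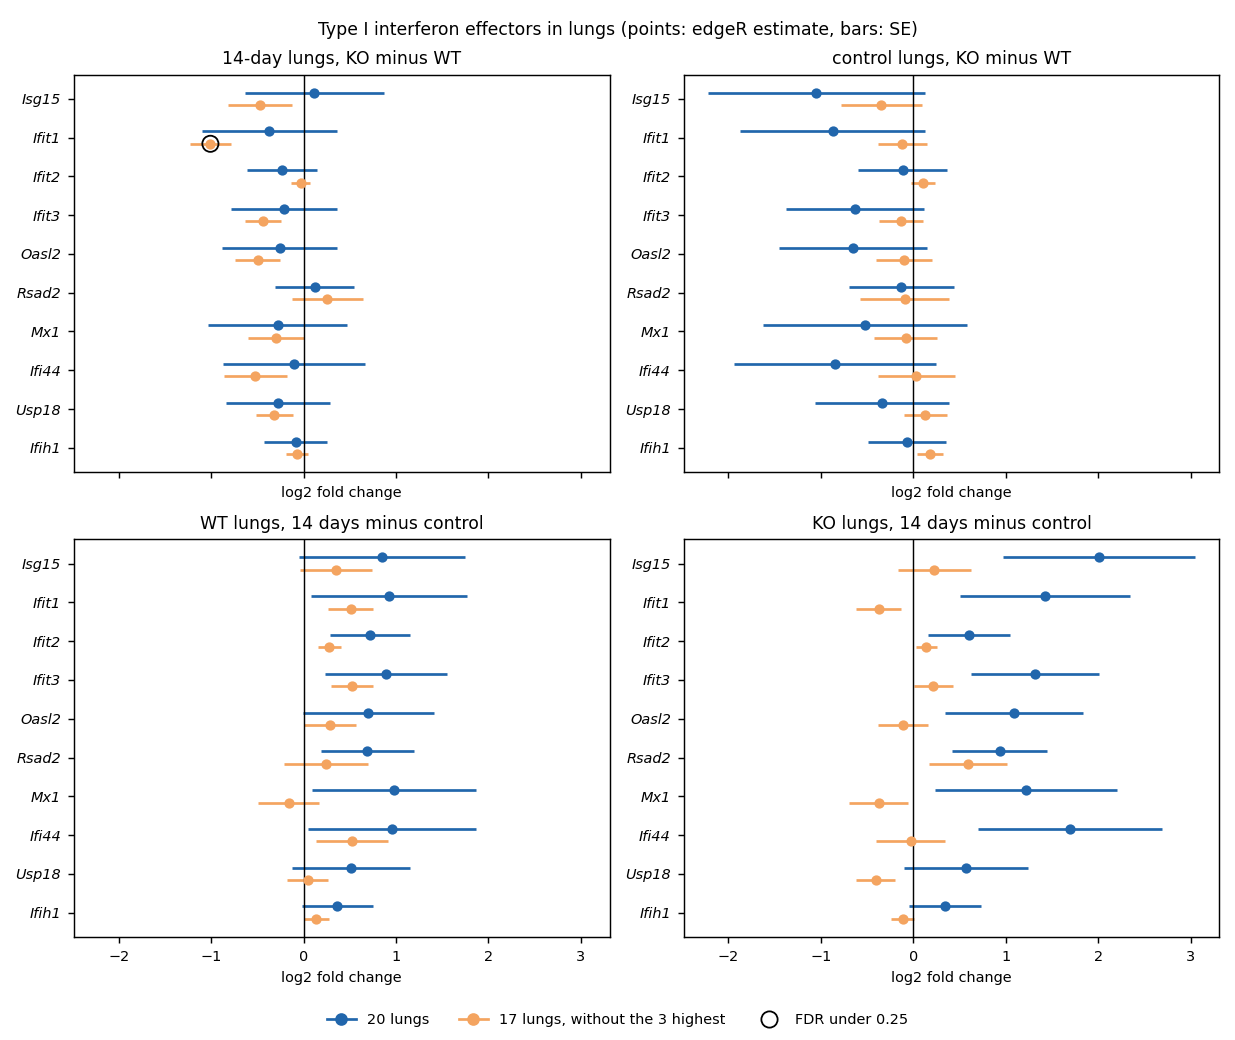
Log2 fold change of each member (y axis) in 4 lung comparisons, the interaction not included (x axis, edgeR's estimate with its SE), in all 20 lungs and leaving out the 3 highest lungs. The plotted estimates with all lungs have SEs of up to 1.17, and every SE is shorter when the 3 lungs are left out. Ifit1 at -1.01 between 14-day KO and WT lungs is the member called then.

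Beside them, 2 of 31 interferon-gamma-type genes were called in 14-day KO against WT lungs, Cd74 (0.39 ± 0.08, adjusted p = 0.0669) and H2-Ab1 (0.31 ± 0.08, adjusted p = 0.129), both of class II antigen presentation and named after their values were seen. Both were also called in KO lungs with tumor, and 0 were in WT lungs with tumor or in control lungs. Without the 3 highest lungs, the count in 14-day KO against WT lungs was 0. Irf1 differed by 0.03 ± 0.09 on the log2 scale between 14-day KO and WT lungs. The median of the list was 0.07 there. Of all genes tested, 0.861% were called in 14-day KO against WT lungs and 0.973% in control lungs. With tumor, 1.05% of genes were called in KO lungs and 2.33% in WT lungs.

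Set against lungs of WT mice at 14 days, 5 members were lower in WT tumors and 0 higher, with a median log2 fold change (tumor minus lung) of -0.77. The tissues differ in most genes, since 75.5% of 16115 genes were called, 37.1% higher and 38.4% lower in tumors. Ifit3 was the most different, at 3.51 to 12.9 FPKM in WT tumors and 33.05 to 283.9 in WT lungs, with no overlap and a log2 fold change of -3.45 ± 0.68 (SE, adjusted p = 5.80e-05 by edgeR). The other 4 were Ifit1 (-2.18 ± 0.77), Ifit2 (-1.33 ± 0.40), Rsad2 (-1.02 ± 0.44) and Ifih1 (-0.81 ± 0.33). Isg15 (0.29 ± 0.71), Ifi44 (0.34 ± 0.69), Oasl2 (-0.29 ± 0.58), Mx1 (-0.15 ± 0.73) and Usp18 (-0.73 ± 0.53) were not called. DESeq2 called 4 of the 7 members to which it gave an adjusted p.

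WT lung 5 set much of the edgeR result. Leaving out KO lung 2, WT lung 5 and KO tumor 2, 8 members were called, 4 higher and 4 lower in tumors, where 36.8% and 37.9% of 16155 genes were. Higher were Isg15 (1.49), Mx1 (1.42), Ifi44 (1.64) and Oasl2 (0.67), and lower were Ifit1 (-1.02), Ifit2 (-0.67), Ifit3 (-2.59) and Ifih1 (-0.34). These shares of the members are close to those over all genes. Ifit1, Ifit2, Ifit3 and Ifih1 were called lower in both fits, and Rsad2 was not (-0.55). With WT lung 5 alone left out, 1 member was called higher, Ifi44 (1.60), and 2 lower, Ifit2 (-0.71) and Ifit3 (-2.62). Ifit1 was then at -1.06 (adjusted p = 0.163 by edgeR). Without WT tumor 4 or WT tumor 6, 3 were called lower, so the calls of Rsad2 and Ifih1 also rested on single tumors.

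**Figure D5:**
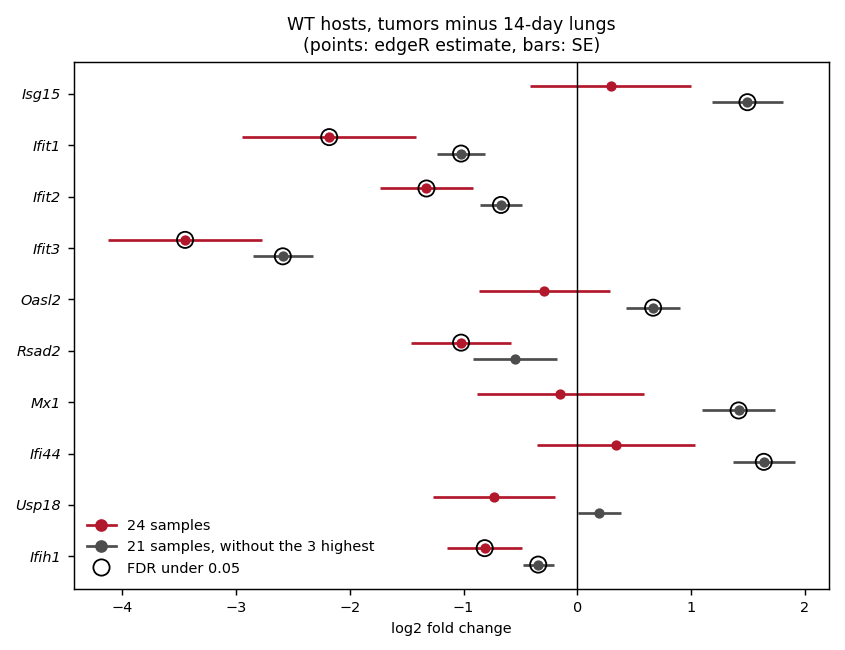
Log2 fold change of WT tumors minus 14-day WT lungs (x axis, edgeR's estimate with its SE) for each member (y axis), with all samples and leaving out the 2 highest 14-day lungs and the highest tumor. Ifit3 lies at -3.45 and -2.59, and Isg15 moves from 0.29 to 1.49.

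The level of the members was ordered differently from gene to gene. By group medians, Isg15, Oasl2, Ifi44 and Usp18 were highest in KO tumors, then WT tumors, then 14-day WT lungs. Ifit1, Ifit3 and Rsad2 were highest in 14-day WT lungs and lowest in WT tumors. For Mx1 both tumor groups had a median of 3.89 FPKM, above lung medians of 1.195 to 1.49. Neighbors in these orders overlapped in range everywhere, and their medians differed by less than the larger SD of the pair, except between control KO lungs and KO tumors for Ifit3 (29.65 against 9.07 FPKM, larger SD 9.99).

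The effect of host genotype in tumors minus that in 14-day lungs was tested in 1 fit of the 24 samples taken at 14 days. None of the members was called, although all 10 estimates were positive, with a median of 0.64, where 0.707% of genes were called. At an unadjusted p under 0.05 there were 1762 genes and 0 members, and DESeq2 called none of the 7 members to which it gave an adjusted p. The SE of the members was 0.47 to 1.06. Of the interferon-gamma-type genes, 19 of 34 were called, with a median of 1.43, and Irf1 had the estimate 1.13 ± 0.15 (adjusted p = 0.000218 by edgeR). That list was chosen with earlier results of these tumors known, and the same tumors enter this fit. Its count is therefore not independent evidence. Leaving out KO lung 2, WT lung 5 and KO tumor 2, these counts were 0 of 10 and 27 of 34. With single samples left out the second count ran from 8, without WT lung 3 or WT tumor 5, to 29, without KO lung 2, and the median of the members from -0.21, without WT lung 5, to 1.98, without KO lung 2. Ifit1, with 1.06 (adjusted p = 0.174), had the smallest adjusted p of the members in that fit of 21 samples.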

How the data were processed

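Bulk RNA of 12 tumors and 20 lungs was sequenced from stranded mRNA libraries. The authors aligned reads to mm10 with STAR and deposited expected counts per gene made with RSEM, and a table of FPKM values, which serves here for levels. Expected counts were tested with edgeR 4.0.16 in R 4.3.3 (TMM, filterByExpr, quasi-likelihood test). The fits were of the 12 tumors, the 20 lungs and the 24 samples taken at 14 days. A call was an adjusted p under 0.05 in tumors and across tissues and under 0.25 in lungs, and the SE was the log2 fold change over the square root of F. DESeq2 1.42.0, on counts rounded to whole numbers, was an alternative. Scripts were tested on simulated data. Per the study, RNA came from independent animals of each genotype. The labels do not say whether a tumor and a lung came from the same mouse, and they were not treated as paired. The members and lists were chosen with earlier results of these data known. Named were all members, at most 8 interferon-gamma-type genes and 4 of any other list by smallest p in tumors, the interferons, and the 10 genes most alike. Outside this rule, Cd74, H2-Ab1, Eomes, Mertk and Mrc1 were named after their values were seen. Correlations used log2 CPM with a prior count of 2. Plots were drawn with matplotlib 3.10.9. Total counts were 4446323 to 8318711 per sample. The values of 1 listed gene are not reported here.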

Additional observations from a re-analysis of the deposited data

Results flagged for a closer look

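The gap of the highest or the lowest sample to the nearest other, divided by the range of the group (Dixon's ratio), was above its 95% limit for groups of that size in 32 of the 60 sets of a member and a group, each time at the high end. Chance passes this limit in about 1 of 20 sets, and the members move together, so the sets are not independent. In KO tumor 2 the ratio was 0.767 for Isg15, 0.846 for Ifit1, 0.69 for Ifit3 and 0.75 for Mx1. In WT tumor 3 the ratio was 0.662 for Ifit1 and 0.64 for Rsad2. In 14-day KO lung 2 the ratio was 0.96 for Isg15, 0.974 for Ifit1, 0.949 for Ifit2, 0.915 for Ifit3, 0.939 for Oasl2, 0.893 for Mx1, 0.981 for Ifi44, 0.905 for Usp18 and 0.931 for Ifih1. In 14-day WT lung 5 the ratio was 0.825 for Isg15, 0.882 for Ifit1, 0.873 for Ifit2, 0.869 for Ifit3, 0.869 for Oasl2, 0.707 for Rsad2, 0.856 for Mx1, 0.87 for Ifi44, 0.858 for Usp18 and 0.825 for Ifih1. In control KO lung 3 the ratio was 0.866 for Ifit1. In control WT lung 4 the ratio was 0.833 for Isg15, 0.905 for Ifit1, 0.93 for Ifit3, 0.855 for Oasl2, 0.941 for Mx1 and 0.835 for Ifi44.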

How the results depend on the processing

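In tumors by host, every log2 fold change of the members stayed positive under all alternatives run, and 0 members were called. The lung estimates of members rest on 6 or 4 samples a group, and in 3 of the 4 lung groups 1 sample stands apart by Dixon's ratio in most members. Depth limits Mx1 and Isg15 in lungs, where counts fell to 5 and 9. Sample numbers were not shown to pair samples: correlations of deviations for equal numbers ran from -0.34 to 0.143 between tumor groups, from -0.076 to 0.214 between 14-day KO and WT lungs, and from 0.037 to 0.16 between KO tumors and 14-day KO lungs, where all 6 were positive and 2 were above 0.1. No pair of groups had every correlation above 0.1. The replicate block gave 257 genes and 0 members called in tumors by host.

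Genes called among all tested, as reported, were 347 (tumors by host), 138 (14-day lungs by genotype), 156 (control lungs by genotype), 373 (WT lungs with tumor), 169 (KO lungs with tumor), 8 (the interaction), 12165 (WT tumors against 14-day lungs) and 114 (the genotype effect in tumors minus lungs). With DESeq2, the count was 549 in tumors by host, 451 in control lungs by genotype, 311 in KO lungs with tumor, 178 in the interaction and 200 in the genotype effect in tumors minus lungs. With RLE size factors, the count was 103 in control lungs by genotype. At an adjusted p of 0.05, the count was 15 in 14-day lungs by genotype, 3 in control lungs by genotype, 0 in WT lungs with tumor, 6 in KO lungs with tumor and 1 in the interaction. With a 1.5-fold minimum, the count was 34 in 14-day lungs by genotype, 37 in control lungs by genotype, 92 in WT lungs with tumor and 42 in KO lungs with tumor. With a 2-fold minimum, the count was 146 in tumors by host, 6143 in WT tumors against 14-day lungs and 69 in the genotype effect in tumors minus lungs. Without the filter on low counts, the count was 18 in control lungs by genotype, 143 in WT lungs with tumor and 104 in KO lungs with tumor. Fitting only the compared groups, the count was 41 in 14-day lungs by genotype and 1189 in control lungs by genotype. With a replicate block, the count was 98 in control lungs by genotype, 582 in WT lungs with tumor, 513 in KO lungs with tumor and 1 in the interaction. Leaving out the 3 highest lungs, the count was 53 in 14-day lungs by genotype, 865 in control lungs by genotype, 348 in KO lungs with tumor and 22 in the interaction. Leaving out the 3 highest lungs, the members called numbered 1 in 14-day lungs by genotype. Leaving out the 2 highest 14-day lungs and the highest tumor, the members called numbered 8 in WT tumors against 14-day lungs.

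Log2 fold changes that turned sign follow, and the cause was not tested. In 14-day lungs by genotype, with a replicate block, they were 0.041 for Mx1. In WT lungs with tumor, with a replicate block, they were -0.036 for Usp18. In the interaction, with a replicate block, they were 0.076 for Ifit2 and 0.074 for Ifih1. In WT tumors against 14-day lungs, with a replicate block, they were 0.034 for Oasl2 and 0.23 for Mx1. In 14-day lungs by genotype, leaving out the 3 highest lungs, they were -0.47 for Isg15. In control lungs by genotype, leaving out the 3 highest lungs, they were 0.10 for Ifit2, 0.033 for Ifi44, 0.13 for Usp18 and 0.18 for Ifih1. In WT lungs with tumor, leaving out the 3 highest lungs, they were -0.16 for Mx1. In KO lungs with tumor, leaving out the 3 highest lungs, they were -0.38 for Ifit1, -0.11 for Oasl2, -0.38 for Mx1, -0.028 for Ifi44, -0.41 for Usp18 and -0.11 for Ifih1. In the interaction, leaving out the 3 highest lungs, they were -0.12 for Isg15, -0.89 for Ifit1, -0.31 for Ifit3, -0.40 for Oasl2, -0.21 for Mx1, -0.55 for Ifi44 and -0.45 for Usp18. In WT tumors against 14-day lungs, leaving out the 2 highest 14-day lungs and the highest tumor, they were 0.67 for Oasl2, 1.42 for Mx1 and 0.19 for Usp18.

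With each sample left out in turn, the genes called ranged from 203 to 488 in tumors by host, 69 to 218 in 14-day lungs by genotype, 5 to 468 in control lungs by genotype, 43 to 753 in WT lungs with tumor, 9 to 299 in KO lungs with tumor, 1 to 127 in the interaction and 46 to 201 in the genotype effect in tumors minus lungs. The members called then ranged from 0 to 1 in 14-day lungs by genotype and 3 to 5 in WT tumors against 14-day lungs. In 14-day lungs by genotype, log2 fold changes then ranged from -1.67 to 1.32 for Isg15, -2.17 to 0.80 for Ifit1, -0.69 to 0.43 for Ifit2, -1.31 to 0.66 for Ifit3, -1.46 to 0.70 for Oasl2, -0.22 to 0.60 for Rsad2, -1.87 to 1.301 for Mx1, -1.83 to 1.21 for Ifi44, -1.25 to 0.66 for Usp18 and -0.54 to 0.39 for Ifih1. In control lungs by genotype, log2 fold changes then ranged from -0.22 to 0.094 for Ifit2, -0.38 to 0.075 for Rsad2, -1.14 to 0.024 for Ifi44, -0.64 to 0.12 for Usp18 and -0.22 to 0.17 for Ifih1. In WT lungs with tumor, log2 fold changes then ranged from -0.36 to 1.55 for Isg15, -0.24 to 1.67 for Ifit1, -0.26 to 1.24 for Oasl2, -0.60 to 1.41 for Mx1, -0.35 to 1.83 for Ifi44, -0.42 to 0.97 for Usp18 and -0.11 to 0.60 for Ifih1. In KO lungs with tumor, log2 fold changes then ranged from -0.38 to 1.67 for Ifit1, -0.11 to 1.42 for Oasl2, -0.38 to 1.43 for Mx1, -0.032 to 1.99 for Ifi44, -0.41 to 0.87 for Usp18 and -0.12 to 0.45 for Ifih1. In the interaction, log2 fold changes then ranged from -0.63 to 2.37 for Isg15, -1.30 to 1.67 for Ifit1, -0.58 to 0.54 for Ifit2, -0.68 to 1.29 for Ifit3, -0.82 to 1.35 for Oasl2, -0.10 to 0.73 for Rsad2, -1.35 to 1.82 for Mx1, -0.99 to 2.05 for Ifi44, -0.92 to 1.00 for Usp18 and -0.48 to 0.46 for Ifih1. In WT tumors against 14-day lungs, log2 fold changes then ranged from -0.49 to 0.63 for Oasl2, -0.39 to 1.38 for Mx1 and -0.91 to 0.16 for Usp18. In the genotype effect in tumors minus lungs, log2 fold changes then ranged from -0.98 to 2.01 for Isg15, -0.24 to 2.72 for Ifit1, -0.19 to 1.96 for Oasl2, -0.69 to 2.48 for Mx1, -0.90 to 2.12 for Ifi44 and -0.41 to 1.49 for Usp18.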
